A study of Homo sapiens with 8 samples.

Results

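The IL-13 and IL-4 receptor signaling chain was followed in human breast cancer cells as the transcripts of 10 genes: the receptor subunits IL13RA2, IL13RA1, IL4R and IL2RG, the transcription factor STAT6, the kinases JAK1, JAK2, JAK3 and TYK2, and the ligand IL13. They were chosen by gene symbol, and each was read by 1 feature of the array, out of 20219 distinct symbols and 29141 tested features. The cells were MIV (MCF10CA1a), a metastatic derivative of the MCF10A breast epithelial line, which in every group also carried a luciferase gene and a stably integrated hairpin construct. The MIV-Luc-shSCR line expressed a scrambled hairpin and the MIV-Luc-shIL13Rα2#2 line one that targets IL13Rα2, hence shSCR and knockdown cells. Each line was sampled after 16 h with IL-13 at 20 ng/ml (+ IL-13) or after a mock treatment (− IL-13), and each group had 2 arrays, called A and B, which makes 8 arrays. Each cell line was made with 1 hairpin, so the targeted knockdown and any other effect of that hairpin cannot be told apart.

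IL-13 binds IL13Rα1, which pairs with IL4Rα to form the type II receptor, and IL-4 can also signal through the type I receptor, in which IL4Rα pairs with the common gamma chain encoded by IL2RG. The chains have no enzyme activity of their own and carry Janus kinases on their cytoplasmic tails, JAK1 on IL4Rα, TYK2 or JAK2 on IL13Rα1 and JAK3 on the gamma chain. The kinases phosphorylate STAT6, which then enters the nucleus and binds DNA. IL13Rα2 binds IL-13 tightly, has a short tail without a Janus kinase site, and is commonly described as a decoy receptor. Arrays measure transcripts and not phosphorylation, so the activity of these kinases and of STAT6 was not measured.

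All values are log2 expression values from RMA, which subtracts background, brings all arrays to a common distribution and condenses the probes of each gene into 1 value. Array medians lay between 5.02 and 5.06, and the arrays of a group correlated with r between 0.992 and 0.993 across features, which are not independent replicates. All 9 basal epithelial marker genes lay above the median of the 2904 negative-control features on every array, 6 of them above its upper quartile (KRT5, KRT14, KRT17, KRT6B, CDH3 and EGFR). Of 7 luminal markers, 5 lay above the median on every array and 4 above the upper quartile (KRT8, KRT18, GATA3 and FOXA1). Some epithelial markers differed between the groups. TP63, the basal transcription factor p63, was called between the treated knockdown and the untreated shSCR cells (6.98 and 6.50 against 4.87 and 5.06, log2 difference 1.78, adjusted p = 0.00969 from limma). It was no longer called without either untreated shSCR array or array A of the treated knockdown cells (adjusted p up to 0.0947 from limma). Its averaged effects were 0.84 for IL-13 and 0.94 for the knockdown (adjusted p = 0.0463 and 0.0225 from limma), and both exceeded 0.05 without any one of 7 arrays, all but array B of the treated knockdown cells. The basal keratin KRT6B was lower by -0.74 between the same cells (adjusted p = 0.0357 from limma) and the luminal keratin KRT18 by -0.60 in the averaged knockdown comparison (adjusted p = 0.0454 from limma), and neither passed after the removal of any 1 array (adjusted p 0.0844 to 0.224 from limma). The part of these marker differences in the results on the receptor chain was not tested. Lymphocyte markers, relevant because lymphocytes make IL13 and use IL2RG and JAK3, were above the median on every array for 2 of 8 genes and above the upper quartile for 0, and their mean level was 3.78 to 4.03 over the arrays. Of 7 myeloid and mast cell markers 4 passed the median and 1, CD68, the upper quartile. For fibroblasts these counts were 4 and 0 of 6, and for endothelium 2 of 3 and 1, PECAM1. The negative controls are largely intronic features with a tail of high values, so being above their median is a weak sign of expression.

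A gene was called at more than a 2-fold change with a limma p under 0.05 after Benjamini-Hochberg adjustment across the 29141 features. IL13RA2 was called in each of the 4 comparisons of a treatment or a hairpin alone, and 0 of the other 9 genes was called in any comparison. The background share of features called was 0.0583% for IL-13 in shSCR cells, 0.0618% for IL-13 in shIL13Rα2#2 cells, 0.0652% for the knockdown without IL-13 and 0.0515% for the knockdown with IL-13. In each of these comparisons 1 of 10 genes of the chain was called. Where the hairpins were compared, this gene, IL13RA2, was the hairpin's own target. Its call there checks the knockdown and is no result about the chain. Between the shIL13Rα2#2 (+ IL-13) and the shSCR (− IL-13) cells 0 of 10 were called, beside 0.154% of all features. For the effect of IL-13 averaged over both cell lines 1 of 10 was called (background 0.0927%), as for the knockdown averaged over both treatments (background 0.0755%), and both times this was IL13RA2. The interaction, tested by the adjusted p alone, called 0 of 10, and 0% of all features.

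**Figure D1:**
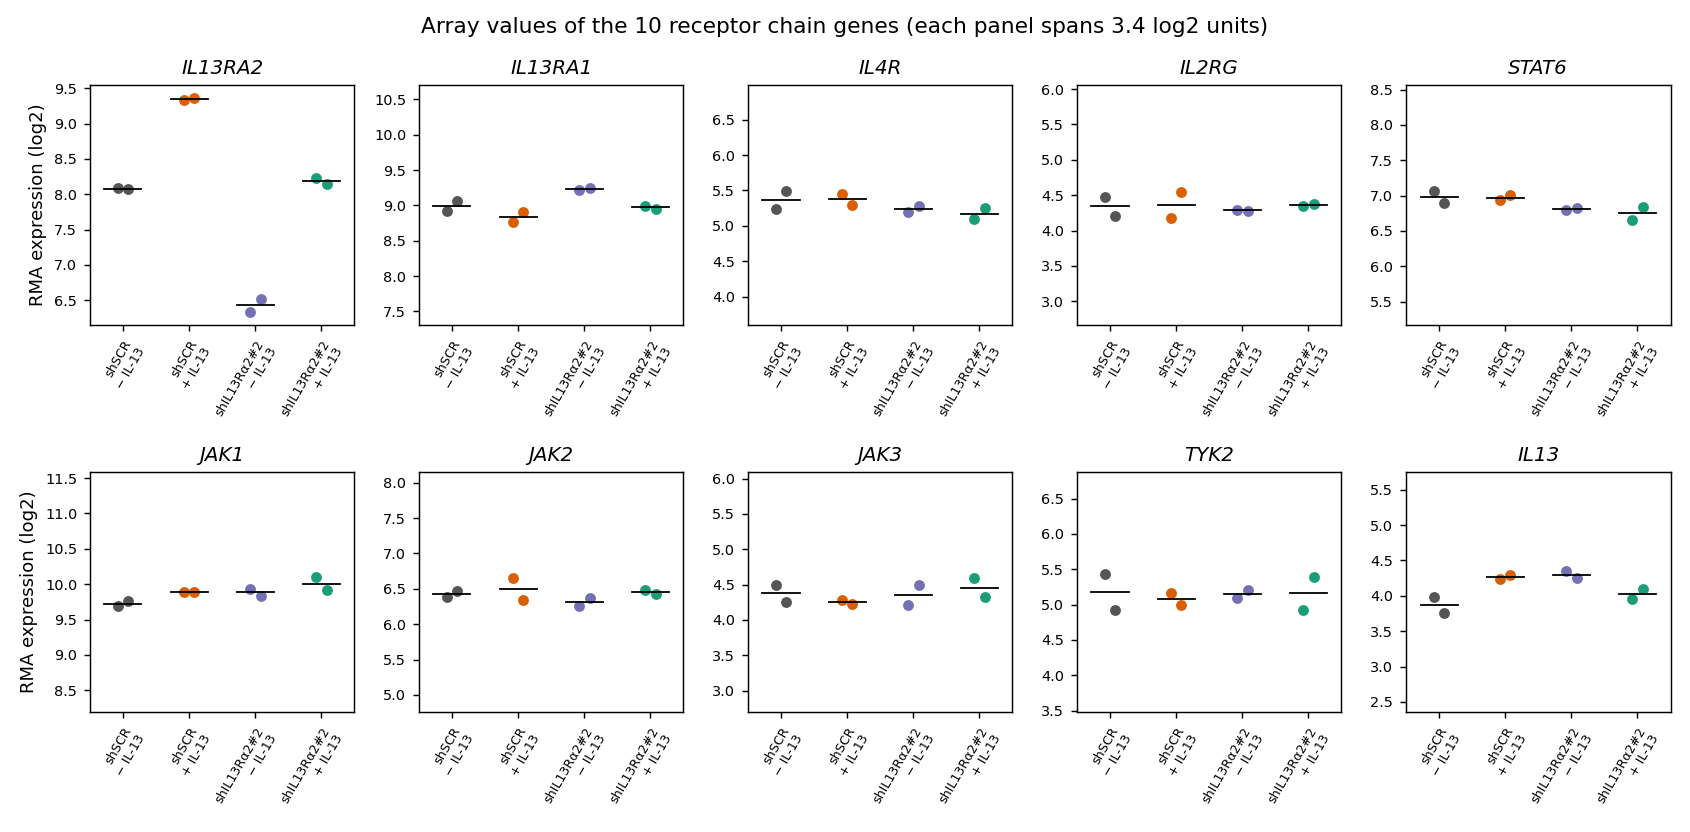
Log2 RMA expression (vertical axis) of the 10 genes on the 8 arrays by group (horizontal axis), with points for arrays, black lines for the mean of the 2 arrays of a group, and the same height of 3.4 log2 units in each panel. IL13RA2 runs from 6.34 to 9.36, while the group means of each other gene differ by at most 0.42.

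IL13RA2 encodes the decoy receptor and is the target of the hairpin. Its log2 values on arrays A and B were 8.09 and 8.07 in shSCR (− IL-13) cells and 9.33 and 9.36 in shSCR (+ IL-13) cells. They were 6.34 and 6.52 in shIL13Rα2#2 (− IL-13) cells and 8.23 and 8.15 in shIL13Rα2#2 (+ IL-13) cells. The untreated knockdown arrays were the lowest and the treated shSCR arrays the highest, and the arrays of no 2 groups overlapped. With IL-13 the transcript rose to 2.41-fold (95% confidence interval 2.02 to 2.87) in shSCR cells and to 3.38-fold (2.84 to 4.03) in knockdown cells. The corresponding log2 fold changes were 1.27 (standard error 0.11, adjusted p = 0.0135 from limma) and 1.76 (standard error 0.11, adjusted p = 0.00264 from limma). The knockdown left 31.9% of the shSCR level (95% interval 26.8 to 38.0%) without IL-13, a log2 fold change of -1.65 with an adjusted p of 0.0105 from limma. With IL-13 in both lines it left 44.85% (37.6 to 53.4%), a log2 fold change of -1.16 with an adjusted p of 0.0241 from limma.

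By unadjusted p, IL13RA2 ranked 7 among all features for IL-13 in shSCR cells, 3 for IL-13 in knockdown cells, 1 for the knockdown without IL-13 and 7 for the knockdown with IL-13. The treated knockdown cells held 107.9% of the IL13RA2 level of untreated shSCR cells (90.6 to 128.6%, adjusted p = 0.815 from limma). That interval includes no change, and a difference of these groups was not detectable with 2 arrays each, although their array values did not overlap. Averaged over both cell lines, IL-13 raised IL13RA2 by 1.51 on the log2 scale (adjusted p = 0.000471 from limma), and averaged over both treatments the knockdown changed it by -1.40 (adjusted p = 0.00105 from limma). The rise with IL-13 was larger by 0.49 in knockdown cells (95% interval 0.13 to 0.85), but this interaction had an unadjusted p of 0.0134 and an adjusted p of 0.989 from limma.

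The calls of IL13RA2 differed in how they held when an array was left out, which leaves 1 array in a group and takes the spread from the other groups, the lone array being assumed to vary like them. These fits called fewer features of any kind in every comparison that called IL13RA2, so a lost call is not particular to this gene. Without any one of the 4 arrays compared, the call for IL-13 in shSCR cells was lost (adjusted p up to 0.160 from limma) while the log2 fold change stayed at 1.26 to 1.28. That for the knockdown without IL-13 was lost in the same way (adjusted p 0.0696 to 0.157 from limma), at -1.74 to -1.56. The call for the knockdown with IL-13 did not survive the removal of any of the 8 arrays (adjusted p 0.078 to 0.214 from limma), its log2 fold change lying between -1.20 and -1.12. The call for IL-13 in knockdown cells and both averaged effects held without each array in turn, with a highest adjusted p of 0.0498, 0.00758 and 0.0157 from limma.

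IL13RA1 encodes the chain of the type II receptor that binds IL-13. Its array values were 8.92 and 9.06 in shSCR (− IL-13), 8.76 and 8.91 in shSCR (+ IL-13), 9.21 and 9.24 in shIL13Rα2#2 (− IL-13) and 8.99 and 8.95 in shIL13Rα2#2 (+ IL-13) cells. The untreated knockdown arrays were the highest and did not overlap any other group. The log2 fold change with IL-13 was -0.16 (95% interval -0.41 to 0.10) in shSCR cells and -0.26 (-0.51 to -0.004) in knockdown cells, and that of the knockdown was 0.23 (-0.02 to 0.49) without and 0.13 (-0.12 to 0.39) with IL-13. The adjusted p from limma was 0.840, 0.715, 0.554 and 0.865. Averaged over both lines the IL-13 effect was -0.21 (unadjusted p = 0.0286, adjusted p = 0.505 from limma), and averaged over both treatments the knockdown effect was 0.18 (unadjusted p = 0.0455, adjusted p = 0.433 from limma).

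In all 4 of these comparisons the estimate for IL13RA1 had the opposite sign to that of IL13RA2. The comparisons share the same 4 group means, so these signs are not independent, and none of the IL13RA1 differences passed the test. As a description over the 8 arrays, which share the 4 groups, the Pearson correlation of IL13RA1 with IL13RA2 was -0.93, a value that 58 of all tested features (0.199%) equalled or undercut. It was the largest in absolute size among the other genes of the chain, so that share is no test of IL13RA1. The log2 ratio of IL13RA2 to IL13RA1 changed by 1.43 with IL-13 in shSCR cells, by 2.02 with IL-13 in knockdown cells, by -1.88 with the knockdown without IL-13 and by -1.29 with the knockdown with IL-13. Most of each of these changes came from IL13RA2, whose own log2 fold changes are given above. The other genes had correlations with IL13RA2 from -0.16 for JAK3 and IL13 to 0.63 for JAK2.

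IL4R encodes IL4Rα, which is shared by both receptor types. Its arrays read 5.23 and 5.49 in shSCR (− IL-13), 5.45 and 5.30 in shSCR (+ IL-13), 5.19 and 5.29 in shIL13Rα2#2 (− IL-13) and 5.09 and 5.26 in shIL13Rα2#2 (+ IL-13) cells. With IL-13 its log2 fold change was 0.01 in shSCR and -0.07 in knockdown cells (adjusted p = 0.994 and 0.952 from limma). The averaged knockdown effect was -0.16 (95% interval -0.38 to 0.05, adjusted p = 0.567 from limma). IL2RG encodes the common gamma chain, which is best known from lymphocytes. Its 8 arrays lay between 4.17 and 4.55, on 4 of them above the negative-control median, and its 5 pairwise log2 fold changes lay between -0.06 and 0.07.

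**Figure D2:**
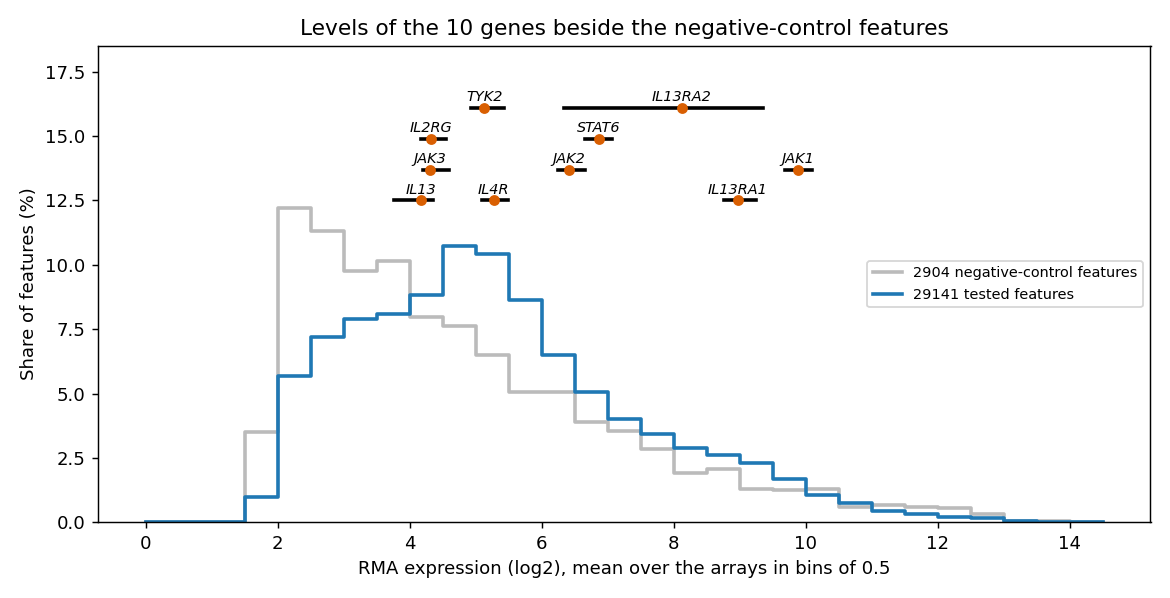
Share of features in percent (vertical axis) by mean log2 RMA level in bins of 0.5 (horizontal axis) for negative controls and tested features, with the range over the 8 arrays (black bars, their heights have no meaning) and the median (orange) of each gene of the chain. IL2RG, JAK3 and IL13 lie around the negative-control median of 4.12 to 4.38, and the other 7 genes lie above it on every array.

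Against the negative controls of the same array, the genes fell into a clear group, a low group and one at background. JAK1 lay at the percentile 95.2 or higher of the negative controls on every array, IL13RA1 at 92.3 or higher and STAT6 at 79.5 or higher. JAK2 lay at 75.3 or higher, and IL13RA2 ranged from 76.3 in an untreated knockdown array to 94.8. IL4R (61.3 to 68.9) and TYK2 (59.2 to 67.8) were above the median of the controls on all 8 arrays but not above their upper quartile. IL2RG (47.9 to 55.4), JAK3 (48.1 to 55.6) and IL13 (43.3 to 51.4) lay around the median, so a level of these 3 genes could not be told from background. IL2RG and its kinase JAK3, the genes of the chain that belong to the type I and not the type II receptor, are among them.

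The start regions of the 2 chains that can pair with IL4Rα are shown because IL13RA1 was read above the negative-control median on all 8 arrays and IL2RG on 4, each against the controls alone, since levels of different features are not comparable. RefSeq windows (build GRCh38.p14) of 250 bases before to 50 bases after the annotated start were matched for 9 of the 10 genes, in 15 windows, and IL13RA2 had no entry in the table. Capitals mark CG dinucleotides. The IL13RA1 window is chrX:118727356-118727655 on the plus strand and the IL2RG window is chrX:71111528-71111827 on the minus strand, each printed 5′ to 3′ on the strand of its gene.
IL13RA1: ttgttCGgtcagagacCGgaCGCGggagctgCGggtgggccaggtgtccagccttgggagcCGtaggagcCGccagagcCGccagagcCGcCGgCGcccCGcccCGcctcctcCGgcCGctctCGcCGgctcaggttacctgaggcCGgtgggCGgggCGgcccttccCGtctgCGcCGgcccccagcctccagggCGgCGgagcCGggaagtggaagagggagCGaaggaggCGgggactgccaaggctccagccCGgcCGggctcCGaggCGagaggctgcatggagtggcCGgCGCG
IL2RG: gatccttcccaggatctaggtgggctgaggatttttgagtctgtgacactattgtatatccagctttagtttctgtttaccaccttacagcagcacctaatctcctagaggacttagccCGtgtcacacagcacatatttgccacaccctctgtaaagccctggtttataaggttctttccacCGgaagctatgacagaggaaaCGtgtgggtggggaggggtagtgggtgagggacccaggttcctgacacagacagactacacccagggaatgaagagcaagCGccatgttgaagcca
The IL13RA1 window held 35 CG dinucleotides, more than 85.9% of the 35116 windows in the table, and the IL2RG window 4, more than 24.5% of them (median 14). The single windows of IL4R, TYK2, JAK3 and STAT6 held 42, 24, 14 and 12. Genes with several windows had mixed counts, 37 and 6 for IL13, 9 to 43 for JAK1 and 11 to 39 for JAK2. IL13, read around the negative-control median, thus had a window with more CG dinucleotides than that of IL13RA1. A link between CG count and level was not tested. The elements TTCNNNGAA and TTCNNNNGAA, which STAT proteins and STAT6 are known to bind and which read the same on both strands, were found in 7.66% and 6.44% of all windows and in 0 of the 15 windows of the chain. Absence from a window says only that these letters are not in it.

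STAT6 is the transcription factor that the type I and type II receptors activate. Its arrays read 7.07 and 6.89 in shSCR (− IL-13), 6.93 and 7.01 in shSCR (+ IL-13), 6.80 and 6.82 in shIL13Rα2#2 (− IL-13) and 6.66 and 6.84 in shIL13Rα2#2 (+ IL-13) cells. All 4 knockdown arrays were below all 4 shSCR arrays, whereas the arrays with and without IL-13 overlapped. STAT6 was 1 of 10 genes of the chain whose arrays of the 2 cell lines did not overlap, a pattern seen in 7.13% of all features. The averaged knockdown effect was -0.19 (95% interval -0.39 to -0.001, unadjusted p = 0.0492, adjusted p = 0.440 from limma), which does not pass the test. The averaged IL-13 effect was -0.03 (95% interval -0.23 to 0.16, adjusted p = 0.943 from limma).

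JAK1 is the kinase bound by IL4Rα. Its arrays read 9.69 and 9.76 in shSCR (− IL-13), 9.89 and 9.88 in shSCR (+ IL-13), 9.93 and 9.84 in shIL13Rα2#2 (− IL-13) and 10.10 and 9.92 in shIL13Rα2#2 (+ IL-13) cells. The untreated shSCR arrays were the lowest. The largest difference, between the treated knockdown cells and the untreated shSCR cells, was 0.28 (95% interval 0.03 to 0.54, unadjusted p = 0.0336, adjusted p = 0.471 from limma). The averaged effects of IL-13 and of the knockdown were both 0.14, with an adjusted p of 0.662 and 0.549 from limma.

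JAK2 and TYK2 are the kinases associated with IL13Rα1. JAK2 lay between 6.25 and 6.66 on the 8 arrays and its 5 pairwise log2 fold changes between -0.11 and 0.14 (adjusted p 0.831 to 0.969 from limma). TYK2 lay between 4.93 and 5.43. Its replicate arrays differed most among the 10 genes, with a standard deviation of up to 0.36, and its fold changes between groups (-0.10 to 0.08) were smaller than that spread. JAK3, the kinase of the gamma chain, lay between 4.21 and 4.59, above the negative-control median on 5 of 8 arrays, with log2 fold changes from -0.13 to 0.20 (adjusted p 0.849 to 0.976 from limma).

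IL13 encodes the ligand itself, and the added cytokine was protein, which an array does not read. Its arrays read 3.99 and 3.76 in shSCR (− IL-13), 4.24 and 4.29 in shSCR (+ IL-13), 4.35 and 4.25 in shIL13Rα2#2 (− IL-13) and 3.96 and 4.09 in shIL13Rα2#2 (+ IL-13) cells. Values were above the negative-control median on 2 of 8 arrays. In shSCR cells both treated arrays were above both untreated ones (log2 difference 0.39, adjusted p = 0.609 from limma), and in knockdown cells both were below (-0.27, adjusted p = 0.730 from limma). The knockdown without IL-13 gave a difference of 0.42 (95% interval 0.14 to 0.70, adjusted p = 0.380 from limma). The interaction was -0.66 (95% interval -1.05 to -0.27), with an unadjusted p of 0.00484 that ranked 115 among all features and an adjusted p of 0.989 from limma. Unadjusted p-values under 0.05 for the interaction were held by 2 of 10 genes, IL13RA2 and IL13, and by 4.47% of all features.

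**Figure D3:**
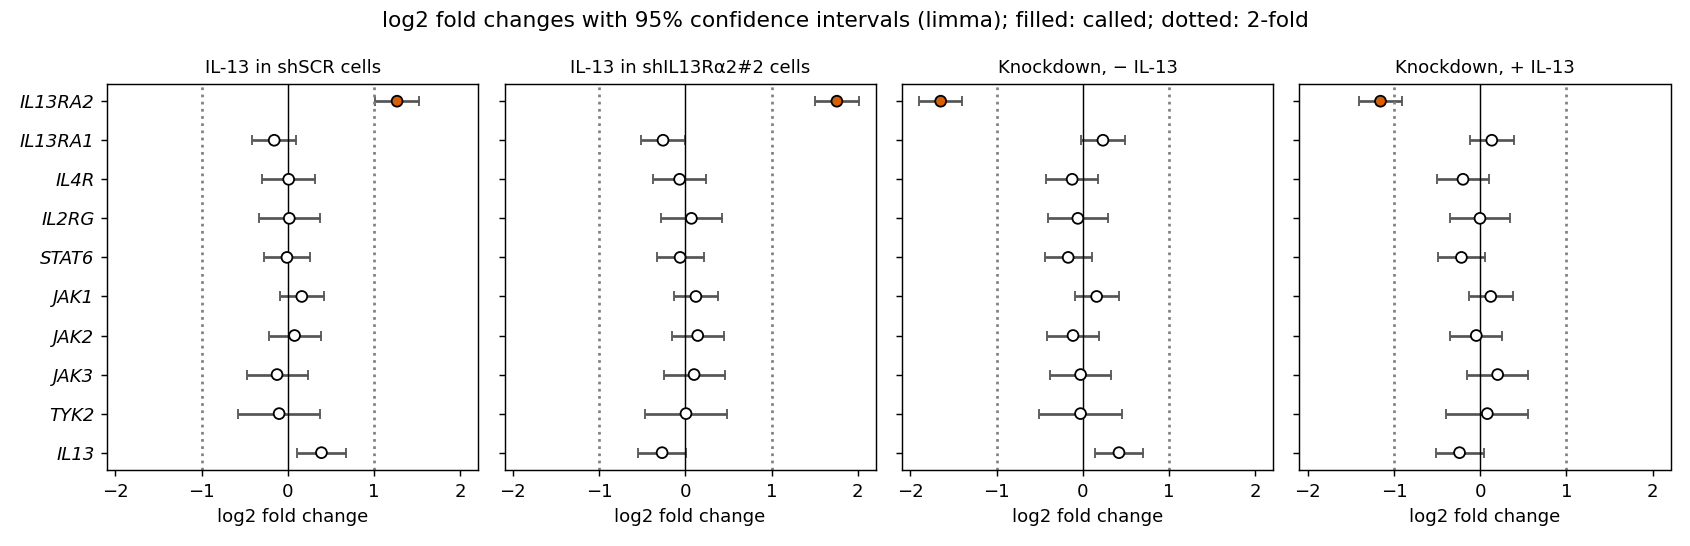
Log2 fold changes (horizontal axis) of the 10 genes (vertical axis) in 4 comparisons, with 95% confidence intervals from limma, filled points where the gene was called and dotted lines at a 2-fold change. IL13RA2 is called in all 4 panels, at 1.27, 1.76, -1.65 and -1.16, and the intervals of the other 9 genes stay within the dotted lines.

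For the 6 other genes above the negative-control median on every array, the 5 pairwise comparisons gave 30 intervals, all 30 within a 2-fold change in either direction, with the outermost bounds at -0.58 and 0.56 on the log2 scale. Of these 30 differences, 2 had an unadjusted p under 0.05 and 0 were called. The intervals of IL2RG, JAK3 and IL13 lay within 2-fold too, but a feature at background may understate a change of its transcript, so they set no firm limit there. Over all 9 genes the median absolute log2 difference was 0.10 with IL-13 in each cell line (all features 0.11), 0.12 with the knockdown without IL-13 (all features 0.13) and 0.13 with the knockdown with IL-13 (all features 0.11). A miss of the threshold does not show that these transcripts were the same in all groups.

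Non-overlap of 2 arrays against 2 was common throughout the data. With IL-13 in shSCR cells it was seen for 4 of 10 genes of the chain and 36.7% of all features, and with IL-13 in knockdown cells for 5 of 10 and 37.4%. With the knockdown it was seen for 6 of 10 and 41.2% without IL-13, and for 7 of 10 and 36.4% with IL-13. Between the treated knockdown and the untreated shSCR cells the values were 3 of 10 and 40.3%. With the 4 treated arrays against the 4 untreated ones it was seen for IL13RA2 alone, 1 of 10, beside 4.78% of all features.

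The genes whose pattern over the 8 arrays was most like that of IL13RA2 were sought among 139 features with group means that span at least 1 on the log2 scale. They were TFPI, an inhibitor of the coagulation cascade (Pearson r 0.97), IL7R, the interleukin-7 receptor alpha chain (0.96), TNS4, a tensin of focal adhesions (0.96), TNC, the matrix protein tenascin C (0.96), and PAPPA, a protease of IGF binding proteins (0.95). Since the group differences make up most of the spread, r is a description of a shared order of groups. All 5 genes had group means highest in shSCR (+ IL-13) and lowest in shIL13Rα2#2 (− IL-13) cells, an order that follows from how they were chosen, so their differences are given without a test. The log2 difference with IL-13 was 0.41 to 0.89 in shSCR and 0.45 to 0.91 in knockdown cells, and that of the knockdown was -0.59 to -0.45 without and -0.69 to -0.38 with IL-13.

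**Figure D4:**
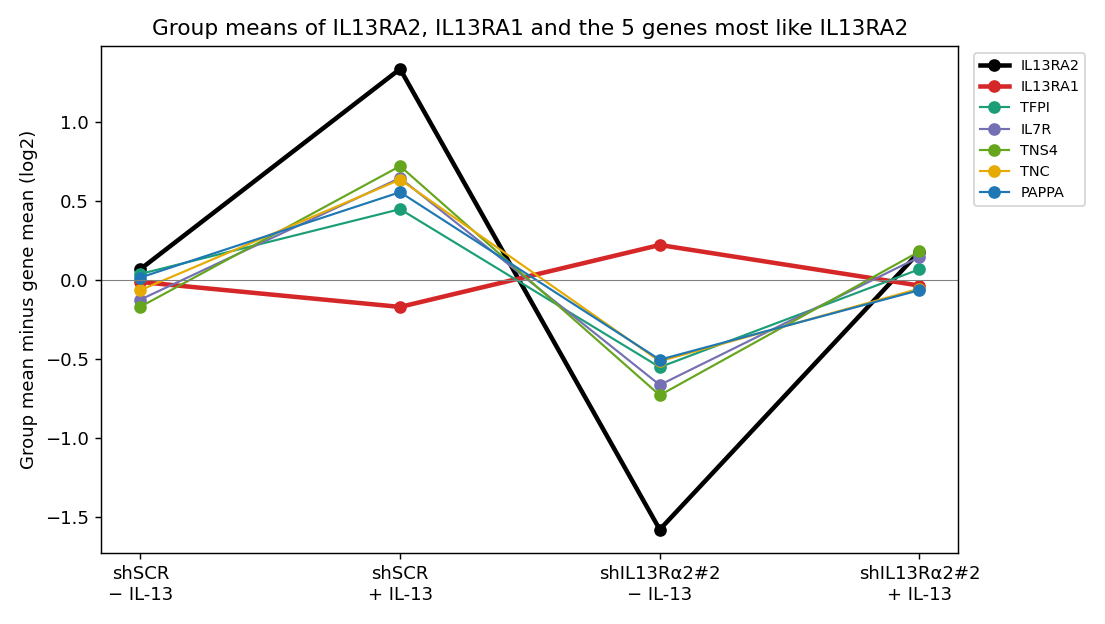
Group means of 2 arrays minus the mean of each gene (log2, vertical axis) in the 4 groups (horizontal axis) for IL13RA2, IL13RA1 and the 5 genes most like IL13RA2. The 5 genes follow IL13RA2 with smaller spans of 1.00 to 1.45 against 2.92, and the line of IL13RA1 bends the other way with a span of 0.39.

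IL7R is also a chain of the wider receptor family, since it pairs with the IL2RG product for interleukin-7 and with CRLF2 for TSLP. Its arrays read 7.73 and 7.94 in shSCR (− IL-13), 8.65 and 8.56 in shSCR (+ IL-13), 7.38 and 7.23 in shIL13Rα2#2 (− IL-13) and 8.17 and 8.06 in shIL13Rα2#2 (+ IL-13) cells. In both cell lines the treated arrays were above the untreated ones without overlap. The log2 difference with IL-13 was 0.77 in shSCR cells and 0.81 in knockdown cells (adjusted p = 0.154 and 0.139 from limma). As a member of the receptor list, its average of 0.79 had an adjusted p of 0.0176 from limma and did not reach 2-fold, so it was not a call. It was also picked above for its likeness to IL13RA2, which favours such a difference. Without 1 array the adjusted p from limma was 0.0481 to 0.103, and it stayed under 0.05 only without array B of the untreated shSCR cells.

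Among 33 further receptor chains that signal through Janus kinases, 0 were called in any of the 8 comparisons, beside 0% to 0.154% of all features per comparison. Adjusted p-values under 0.05 without the fold threshold were found in the averaged comparisons for 1 of 33 chains with IL-13, IL7R, beside 0.233% of all features, and for 2 of 33 with the knockdown, beside 0.446%. LIFR, the receptor chain of leukemia inhibitory factor, fell with the averaged knockdown by 0.88 on the log2 scale (adjusted p = 0.0362 from limma), and its highest knockdown array (5.96) was below its lowest shSCR array (6.20). IL31RA, a chain of the interleukin-31 receptor, fell by 0.57 (adjusted p = 0.0231 from limma), from 5.68 to 6.03 on the shSCR arrays to 5.24 to 5.33 on the knockdown arrays. Without any one of the 8 arrays both values exceeded 0.05 (adjusted p 0.0545 to 0.151 for LIFR and 0.0879 to 0.118 for IL31RA from limma). The partner of IL31RA, OSMR, differed by -0.13 (adjusted p = 0.556 from limma). The list's median was -0.02 for the averaged knockdown effect, beside -0.01 over all features, and -0.01 for the averaged IL-13 effect, beside 0.01.

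The other components of the pathway gave no call in any comparison, in 0 of 6 further STATs, 0 of 11 adaptors and kinases downstream of IL4Rα, 0 of 11 negative regulators and 0 of 9 related ligands. Per comparison, 0% to 0.154% of all features were called, so 0 calls in lists this small say little about the pathway. SOCS1, an inhibitor of Janus kinases that STAT6 signaling is known to induce, had an averaged IL-13 effect of 0.00 (adjusted p = 0.996 from limma), CISH one of 0.21 (adjusted p = 0.569 from limma) and SOCS3 one of -0.07 (adjusted p = 0.930 from limma). The smallest adjusted p over these 4 groups of genes in the averaged IL-13 comparison was 0.452, for STAT4, and in the averaged knockdown comparison 0.196, for IL7 (both limma). The median averaged IL-13 effect was 0.14 for the STATs, 0.01 for the adaptors, -0.04 for the negative regulators and 0.09 for the ligands, beside 0.01 over all features. Among the ligands, IL2, IL4, IL5, IL9, IL21, IL31 and TSLP had mean levels at the percentiles 20.3 to 44.5 of the negative controls. Their levels could not be told from background, which limits the count and the median of that list.

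Genes listed as responsive to IL-13 and STAT6 in epithelia and macrophages were read beside the chain. No direction was set in the list, and the part of STAT6 in their changes was not tested. The list was made with earlier results of these data known. Of 25 listed, 24 were on the array. In shSCR cells 4 of 24 were called as raised by IL-13 (SERPINB3, SERPINB4, PDCD1LG2 and CCL26) and 0 as lowered, beside 0.0583% of all features called. In knockdown cells 3 of 24 were called as raised, SERPINB3, SERPINB4 and PDCD1LG2, and 0 as lowered, beside 0.0618% of all features. PDCD1LG2, the ligand PD-L2, read 5.67 and 5.62 before and 7.26 and 7.39 after IL-13 in shSCR cells, and 5.39 and 5.75 before and 7.09 and 6.84 after it in knockdown cells, so that treated and untreated arrays stood apart in both lines. Its log2 fold change was 1.68 and 1.39 (adjusted p = 0.0143 and 0.0343 from limma). CCL26, the chemokine eotaxin-3, rose by 1.69 in shSCR cells (adjusted p = 0.0131 from limma) and had a log2 fold change of 0.85 in knockdown cells (adjusted p = 0.187 from limma). Without any one of the 4 arrays of shSCR cells the calls of PDCD1LG2 and CCL26 there were lost (adjusted p up to 0.160 and 0.151 from limma), as was that of PDCD1LG2 in knockdown cells without any one of the 8 arrays (0.085 to 0.227). The untreated CCL26 arrays (3.57 to 3.85) lay below the negative-control median, so these differences start from a level that could not be told from background and may understate the change. The difference of the CCL26 responses, tested as the interaction, was -0.84 with an adjusted p of 0.989 from limma.

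SERPINB3 and SERPINB4, a pair of near-identical serpins whose probes may share signal, had averaged IL-13 effects of 3.58 and 4.17 (adjusted p = 4.53e-06 and 1.19e-05 from limma). Averaged over both lines, 5 of 24 response genes were called as raised, beside 0.0927% of all features called. The fifth was TNFAIP6, a hyaluronan-binding protein of inflammation (1.64, adjusted p = 0.0314 from limma). With the knockdown, HPGD, the enzyme that degrades prostaglandins, was called as raised without IL-13 (1.10, adjusted p = 0.0326 from limma) and with it (1.26, adjusted p = 0.0241 from limma). Averaged over both lines, HPGD was lower with IL-13, by -0.79 (adjusted p = 0.0137 from limma). This is under 2-fold and against the direction of the 5 genes called as raised. CD274, the ligand PD-L1, fell by 0.62 in the averaged knockdown comparison (adjusted p = 0.0373 from limma), which is under 2-fold. The averaged IL-13 calls of SERPINB3, SERPINB4, PDCD1LG2 and CCL26 held without each array in turn (adjusted p up to 0.0268 from limma), as did the averaged knockdown effect on HPGD of 1.18 (up to 0.0224). That of TNFAIP6 was lost without any one of 6 arrays, all but those of untreated knockdown cells (adjusted p up to 0.152 from limma). HPGD in both knockdown comparisons and with IL-13, and CD274, exceeded 0.05 whichever of the 8 arrays was removed (adjusted p 0.0511 to 0.304 from limma). The interaction called 0 of 24. The median over the 24 genes was 0.10 for IL-13 in shSCR cells and 0.04 in knockdown cells, beside 0.00 and 0.02 over all features. It includes SERPINB10, POSTN, CLCA1, ARG1, FCER2, CST1 and DPP4, with mean levels at the percentiles 17.7 to 47.4 of the negative controls. The levels of these genes could not be told from background, so a missing call for them does not show a missing response. These response genes were listed with earlier results of these data known, so their counts are no independent evidence of a response.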

How the data were processed

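Expression was measured on 8 arrays, 2 biological replicates for each of 4 groups per the study's methods. The authors deposited 1 table of log2 values of 33297 gene-level features made with RMA (Affymetrix Expression Console version 1 per the submitters' processing notes); the labels name the Human Exon 1.0 ST array, but a table of this size may come from another, gene-level design, which was not settled. Columns were placed in groups by construct and treatment, with no further normalization. Of these features, 4156 controls were left out of the tests and the 2904 negative controls among them served as background.

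Group means were fitted with limma 3.58.1 in R 4.3.3 over all 8 arrays and 29141 features, a code path tested on simulated data. Calls needed a Benjamini-Hochberg adjusted p under 0.05 and, except for the interaction, a fold change above 2, as in the methods of the study. For lists, a symbol with several features was read from the brightest. The genes and lists, and the rules for naming genes, were chosen with earlier results of these data known. Genes of the pathway and marker lists with an adjusted p under 0.05 were named, with examples by size. Alternatives were the methods' analysis of variance, other normalizations, filters, thresholds and variance priors, and leaving out each array. For arrays, their number limits the precision.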

Additional observations from a re-analysis of the deposited data

Results flagged for a closer look

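In groups of 2 arrays no single array can be tested as standing apart. For IL13, the gene of the ligand, both treated arrays lay above the untreated mean in shSCR cells and both lay below it in shIL13Rα2#2 cells, and the difference of these responses was -0.66 on the log2 scale. The test of that difference gave an adjusted p of 0.989 from limma, so it did not pass, and 2 of the 8 arrays were above the negative-control median for this gene.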

How the results depend on the processing

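The count of called genes of the chain was 1 in each of the 4 comparisons of IL-13 or the knockdown alone. It became 0 in all 4 with the adjusted analysis of variance and 0 in all 4 with limma on the compared arrays alone. Of all 29141 features these settings called 0 in each comparison and 0 to 2, so they left almost nothing to call. For the interaction the count was 0, and it became 2 (IL13RA2 and IL13) both with the unadjusted analysis of variance (1284 of all features) and with unadjusted limma p-values (1304). Leaving out 1 array in turn gave a count of 0 to 1 for IL-13 in shSCR cells, 0 to 1 for the knockdown without IL-13 and 0 in every case for the knockdown with IL-13, beside 2 to 10, 0 to 2 and 0 to 5 of all features. The counts for IL-13 in knockdown cells, for both averaged effects and for the treated knockdown against untreated shSCR cells did not change when an array was left out. A common median for the arrays, quantile normalization of the deposited values, leaving out the dimmest 30% of features, an intensity trend with a robust prior and dropping the fold threshold changed no count of called genes. Of 245 alternatives for single genes, 219 kept direction and side of the threshold, 24 lost and 2 gained a call, and 0 changed direction. With the dimmest 25% of features as background in place of the negative controls, all 10 genes were above background on all arrays, so the low level of IL2RG, JAK3 and IL13 depends on that choice. No paired analysis was possible because the column headings carry no replicate numbers of the sample titles.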
